A study of Mus musculus with 4 samples.

Results

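Keratin genes encode the proteins of the intermediate filaments that fill epithelial cells, and in the skin they are the main product of keratinocytes and of the hair follicle (HF). Members were all genes with a symbol of Krt and a number from 1 to 90, without the keratin-associated proteins, and 53 of the 22913 genes in the files met this rule. They were split by number into 15 hair shaft keratins (Krt31 to Krt40 and Krt81 to Krt87), 8 inner root sheath keratins (Krt25 to Krt28 and Krt71 to Krt74) and 30 epidermal or simple keratins. Krt85 was not analysed here. RNA sequencing was done on dermal white adipose tissue (dWAT), the fat layer around the lower ends of HFs, of C57BL/6 mice, with 1 library for each of 4 groups. OTD is old mice of 18 months in telogen, the resting phase of the hair cycle, and YTD is young mice of 2 months in telogen. OAD and YAD are old and young mice of the same ages in anagen, the growth phase, which was induced by depilation. No transgene or mutant allele is named for any group. The dWAT was dissected under the skin and scraped from the bottom of the HFs after the subcutaneous fat and the muscle sheet had been removed, and tissue of several mice was harvested for each group. The age field of the labels gives 18 months for YTD and 2 months for OAD, against the titles of the same samples, and the titles were followed here. Because each group is 1 library, differences below carry no replicate error and were not tested.

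Keratins come in 2 types, the acidic type I and the basic type II, and a filament forms only from pairs of a type I with a type II protein. Of the members 27 were type I and 26 type II. The mouse keeps type I genes together on chromosome 11 and type II genes on chromosome 15, and the files placed 26 members on chromosome 11 (chr11:99279959-100269871, GRCm38) and 27 on chromosome 15 (chr15:101349571-102032026), Krt18 being the type I gene that lies in the type II cluster. In an anagen HF, cells of the bulb matrix become the layers of the hair shaft, which harden with cysteine-rich hair keratins, and the inner root sheath, which moulds the growing shaft with its own keratins. The outer root sheath is continuous with the basal epidermis and makes Krt5, Krt14 and Krt17, while Krt75 marks the companion layer between the sheaths. In telogen the bulb is gone and the follicle is short, so hair shaft and inner root sheath keratins are known as genes of anagen.

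The start regions of 5 highly expressed members are shown because they carry the motifs that were counted over the family. Each runs from 250 bases before to 50 bases after the RefSeq transcription start on build GRCm38.p6, and is written 5′ to 3′ on the minus strand, where these genes lie, so that it ends in the first exon. Capitals mark TATAAA, the core of the TATA box, and CTTTGA, a core that TCF/LEF factors of the Wnt pathway bind.
Krt31, a type I keratin of the hair cortex, chr11:100050502-100050801: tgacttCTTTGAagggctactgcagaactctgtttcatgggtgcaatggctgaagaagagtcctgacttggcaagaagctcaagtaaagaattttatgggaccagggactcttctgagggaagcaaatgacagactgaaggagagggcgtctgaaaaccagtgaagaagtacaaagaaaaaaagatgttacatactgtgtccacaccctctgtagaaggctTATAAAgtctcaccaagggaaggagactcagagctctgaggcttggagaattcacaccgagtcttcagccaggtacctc
Krt33b, a type I keratin of the hair cortex, chr11:100029819-100030118: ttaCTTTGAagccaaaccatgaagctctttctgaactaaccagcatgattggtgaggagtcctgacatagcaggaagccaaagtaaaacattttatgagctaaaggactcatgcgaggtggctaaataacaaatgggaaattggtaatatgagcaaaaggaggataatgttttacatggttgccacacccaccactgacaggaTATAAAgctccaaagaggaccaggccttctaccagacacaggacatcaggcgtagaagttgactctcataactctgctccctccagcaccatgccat
Krt34, a type I keratin of the hair cortex, chr11:100041505-100041804: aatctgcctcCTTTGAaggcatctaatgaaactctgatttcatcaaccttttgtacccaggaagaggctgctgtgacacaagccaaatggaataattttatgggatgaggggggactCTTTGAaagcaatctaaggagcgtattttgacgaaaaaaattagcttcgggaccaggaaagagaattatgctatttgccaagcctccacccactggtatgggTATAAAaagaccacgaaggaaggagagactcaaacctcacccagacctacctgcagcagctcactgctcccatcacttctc
Krt25, a type I keratin of the inner root sheath, chr11:99322902-99323201: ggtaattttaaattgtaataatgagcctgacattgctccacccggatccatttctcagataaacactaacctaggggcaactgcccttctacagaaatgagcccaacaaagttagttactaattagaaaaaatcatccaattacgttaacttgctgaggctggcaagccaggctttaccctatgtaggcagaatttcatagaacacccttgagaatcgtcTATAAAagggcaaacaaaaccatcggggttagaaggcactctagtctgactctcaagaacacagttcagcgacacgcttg
Krt71, a type II keratin of the inner root sheath, chr15:101743048-101743347: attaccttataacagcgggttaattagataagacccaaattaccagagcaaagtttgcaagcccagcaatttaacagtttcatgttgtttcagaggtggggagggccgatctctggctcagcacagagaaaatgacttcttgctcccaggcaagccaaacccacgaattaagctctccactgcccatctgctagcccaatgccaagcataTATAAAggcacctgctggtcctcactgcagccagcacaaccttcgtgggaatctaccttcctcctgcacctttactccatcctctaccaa
TATAAA began 29 bases before the start site in Krt31, 47 in Krt33b, 31 in Krt34, 30 in Krt25 and 40 in Krt71. CTTTGA began 244 bases before the start in Krt31, 247 in Krt33b, and 240 and 133 in Krt34. RefSeq promoters were matched for 36 of the 53 members. Searched on both strands, TATAAA was in 7 of 7 inner root sheath promoters, 6 of 9 hair shaft promoters and 6 of 20 epidermal or simple promoters, beside 13.6% of all 32851 promoters of the same length. These counts are at any position. The only match lay on the reverse strand in Krt72, 203 bases before the start, and in Krt84, at 206. It began 19 bases after the start in Krt42, and in Krt8 matches began 3 bases and 1 base before it. CTTTGA was in 5 of 9 hair shaft promoters (Krt31, Krt32, Krt33b, Krt34 and Krt39), 1 of 7 inner root sheath promoters (Krt28) and 3 of 20 epidermal or simple promoters, beside 16.0% of all promoters. The members are neighbours and copies of each other, so these counts are not independent, and a match is a description of letters and not of a bound site.

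The coding sequences of 52 members were read from the GENCODE M21 annotation, and their lengths equalled the feature lengths listed in the files. Where a gene had several transcripts, one with the listed length was taken first, so this match was favoured by the choice. The codons TGT and TGC for cysteine, the residue that cross-links hardened hair keratin, made up a median of 6.47% of codons in hair shaft keratins (range 2.49% to 8.43%), 1.73% in the inner root sheath (1.72% to 2.24%, 7 genes) and 1.11% in epidermal or simple keratins (0% to 5.26%). Glycine codons ran the other way, with medians of 5.29%, 8.65% and 12.2%. Some copies are close enough to share reads. Coding identity was 97.6% between Krt6a and Krt6b, 93.3% between Krt33a and Krt33b, 93.1% between Krt81 and Krt83, 92.9% between Krt81 and Krt86 and 87.3% between Krt31 and Krt34. Of the 75-base windows of a gene, the share found in another keratin was 55.7% for Krt6a, 50.6% for Krt6b, 45.8% for Krt81, 45.6% for Krt86, 34.3% for Krt34 and 24.5% for Krt31. The levels of these genes are uncertain to the extent that the counting split such reads. The share was 0% for Krt15, Krt17, Krt32, Krt36, Krt39, Krt40, Krt72, Krt75, Krt79 and Krt82. Windows were compared among these 52 members only, without Krt74 and Krt85, so windows shared with Krt74 or Krt85 are not covered.

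Expression was deposited by the authors as FPKM, fragments scaled by feature length and by library size. The lowest FPKM values gather at the value of 1 fragment, and the depth estimated from this was 20300000 fragments for OTD, 19100000 for YTD, 24500000 for OAD and 22900000 for YAD. The floor of a gene was set at 3 such fragments. It covers counting error only, and a fold against a level under it is a lower bound. The share of mitochondrially encoded genes was 52.7% for OTD and 44.7% for YTD but 18.3% for OAD and 14.4% for YAD. Rescaling to a fixed sum (TPM) took the median log2 difference of genes of 1 FPKM or more from -0.06 to -0.07 between ages in telogen, from near 0 to -0.21 between ages in anagen, from 0.03 to 0.76 between phases in young and from 0.05 to 0.58 in old mice. The 10 adipocyte markers were at 1 FPKM or more in each library, and summed to 7755 FPKM in OTD and 6426 in YTD, and 2706 in OAD and 1893 in YAD. The samples also held other cells: 8 skeletal muscle markers summed to 51085, 81662, 12042 and 9307 FPKM in the same order, and 12 keratinocyte markers that are not keratins to 135, 190, 4546 and 4096. In bulk tissue, fewer cells of a type and less RNA per cell cannot be told apart.

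Keratin genes were a minor part of the RNA of telogen dWAT and among the most abundant transcripts in anagen. Their share of summed FPKM was 0.0296% in OTD and 0.0494% in YTD, but 3.68% in OAD and 3.65% in YAD. Without the mitochondrially encoded genes in the sum, it was 0.0625% in OTD and 0.0895% in YTD, and 4.51% in OAD and 4.27% in YAD. At 1 FPKM or more there were 29 keratins in OTD and 32 in YTD against 40 in OAD and 39 in YAD, and 41 reached it in some library (all 15 hair shaft, all 8 inner root sheath and 18 epidermal or simple members). No keratin was among the top 100 genes of a telogen library, while 7 were in OAD and 9 in YAD, with Krt71 at rank 19 in both. Krt24 was listed at 0 in all libraries. Changes are differences of log2(FPKM + 1), which understate the change of low genes, and a gene was counted as differing when this was at least 1 in size. Below, shares and medians of all genes are over those above 0 in either library compared (17230 to 17712 genes).

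**Figure D1:**
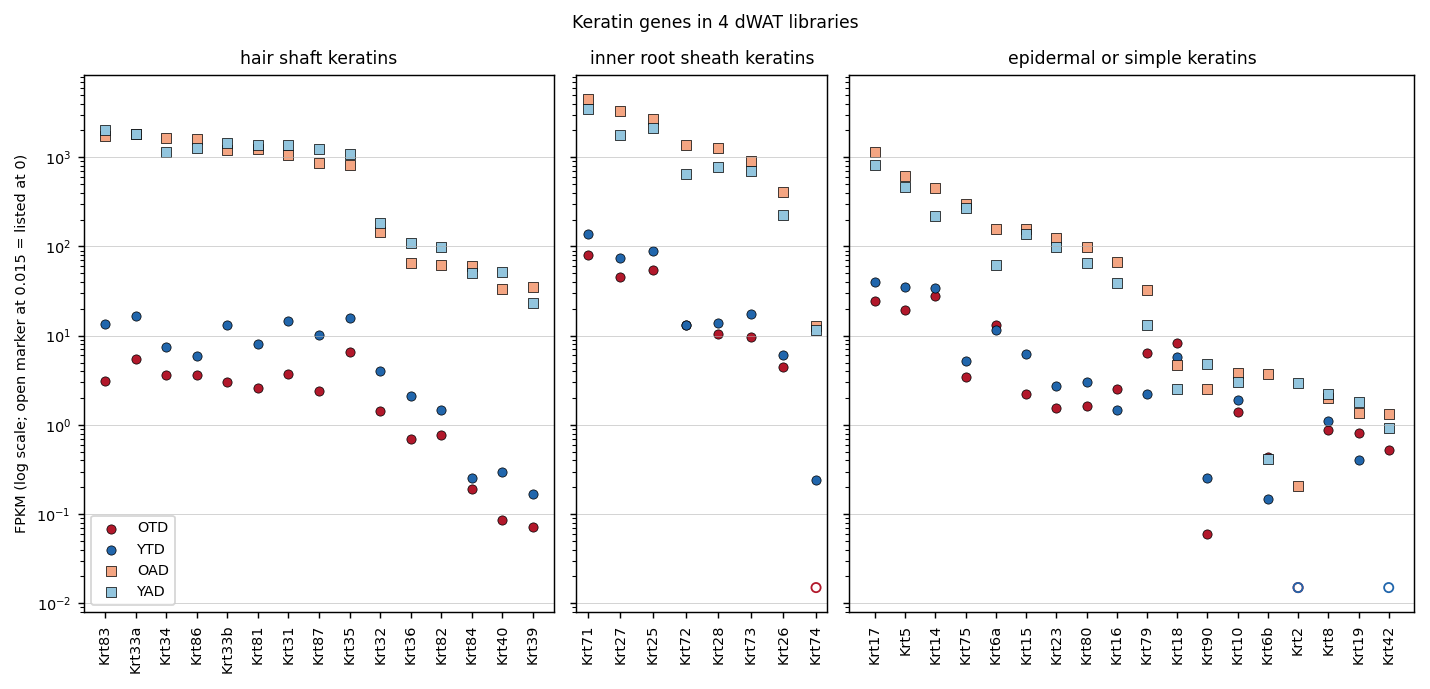
FPKM on a log axis of the 41 keratin genes that reached 1 FPKM in some library, 1 marker per library, in 3 panels for hair shaft, inner root sheath and epidermal or simple keratins, ordered by their highest value. Open markers show values listed at 0. Squares (anagen) lie above circles (telogen) for all hair shaft and inner root sheath members, while in the right panel Krt18 has all circles above the squares, and Krt6b has its YAD square just below its OTD circle.

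Between telogen and anagen, 35 of 53 keratins were higher in YAD than YTD by a log2 change of at least 1 and none was lower by as much, where 16.1% of all genes were higher and 16.7% lower. The same comparison in old mice, OAD against OTD, again gave 35 higher and none lower, where 16.1% of all genes were higher and 15.6% lower. In each age these were all 15 hair shaft, all 8 inner root sheath and 12 epidermal or simple members. The median log2 difference was 6.48 in young and 7.82 in old mice for hair shaft keratins, 4.83 and 6.18 for inner root sheath keratins, and 0.78 and 0.68 for epidermal or simple keratins with a value above 0, where the median of all genes was 0.02 and 0.01. With only members of at least 1 FPKM in either library compared (16 in young, 17 in old mice), the epidermal or simple medians were 2.50 and 3.50. Over the 18 members that reached 1 FPKM in some library they were 2.28 and 2.83. Both filters admit members that reach 1 FPKM only in anagen, so these medians can be raised by the choice.

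The hair shaft group showed the widest contrast between phases. Its summed FPKM was 37.5 in OTD and 113.6 in YTD, and 12405 in OAD and 13325 in YAD, which is 117-fold from YTD to YAD and 331-fold from OTD to OAD. Among single members the young fold ran from 45.6 in Krt32, a keratin of the shaft cuticle, to 214 in Krt86, a type II keratin of the cortex. In old mice, among members above the floor in both libraries, it ran from 80.9 in Krt82, also of the cuticle, to 559 in Krt83 of the cortex. Krt83 had 3.09 FPKM in OTD and 13.5 in YTD, and 1724 in OAD and 2011 in YAD, the highest level of a hair shaft keratin in YAD. Within anagen the members fell into 2 ranges: the 9 highest (Krt31, Krt33a, Krt33b, Krt34, Krt35, Krt81, Krt83, Krt86 and Krt87) lay between 822 and 2011 FPKM, and the other 6 between 23.4 and 185.

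The inner root sheath group was the highest keratin group in both telogen libraries and in OAD, among sums that lack the hair shaft member Krt85. The order of the groups and their ratios below hold only for these sums. Its summed FPKM was 217 in OTD and 351 in YTD, and 14417 in OAD and 9770 in YAD, a 27.8-fold difference between phases in young and 66.5-fold in old mice. Krt71, the main type II keratin of all sheath layers, had 79.8 FPKM in OTD and 136 in YTD, and 4503 in OAD and 3502 in YAD. Krt25, a type I keratin of the same layers, had 53.8, 89.1, 2677 and 2129 FPKM in the same order. Both were the highest keratins of their type in telogen, when the group still stood above the hair shaft group by 5.78-fold in OTD and 3.09-fold in YTD, while in anagen the ratio was 1.16 in OAD and 0.733 in YAD. Krt74, a keratin of the Huxley layer, was the lowest member, at 0 in OTD and 0.241 in YTD, and 12.9 in OAD and 11.5 in YAD.

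Among the epidermal or simple keratins, those with the highest levels were keratins of the outer root sheath and companion layer. Krt17, a keratin of skin appendages, had 24.5 FPKM in OTD and 39.6 in YTD, and 1146 in OAD and 826 in YAD. The companion-layer keratin Krt75 had 3.45, 5.22, 303 and 273, which is 52.3-fold between phases in young and 87.6-fold in old mice. Krt1, the suprabasal type II keratin, was near the floor, with 0.0441 FPKM in OTD and 0 in YTD, and 0.126 in OAD and 0.0597 in YAD. Its partner Krt10 had 1.39, 1.88, 3.78 and 3.0 FPKM. The other 12 members of the group stayed under 1 FPKM in every library, Krt1 among them, so the word epidermal here stands for the numbering rule. Krt18, the type I keratin of simple epithelia, was the one member of 1 FPKM or more that was lower in anagen at both ages, in FPKM, in TPM and by the median of ratios, at 8.29 FPKM in OTD and 5.76 in YTD, and 4.67 in OAD and 2.54 in YAD. Its type II partner Krt8 had 0.884, 1.11, 2.02 and 2.21 FPKM. The 5 smooth muscle markers, which in old mice were all lower in anagen in FPKM and TPM and in young mice all in FPKM and 2 with TPM, summed to 1539 FPKM in OTD and 1904 in YTD, and 388 in OAD and 317 in YAD. Most of each sum was Des, with 1039, 1666, 257 and 181 FPKM in the same order. In telogen 4 of the 5 were higher in OTD than YTD (median 1.06). Des was lower in OTD (-0.68), as were all 8 skeletal muscle markers. The part of the smooth muscle markers in the Krt18 values was not tested.

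**Figure D2:**
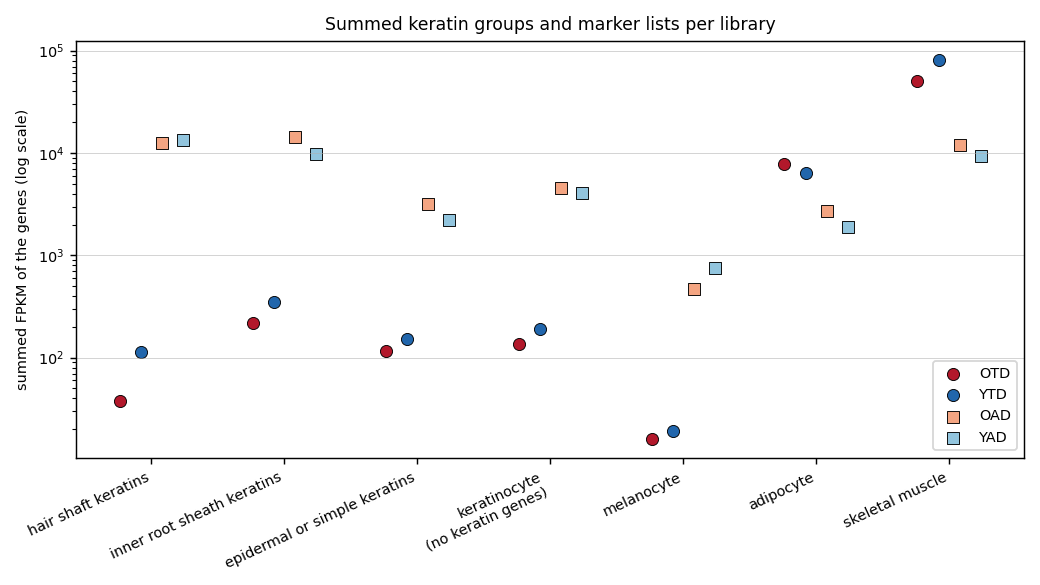
Summed FPKM on a log axis of the 3 keratin groups and of 4 marker lists, 1 marker per library. The keratin groups, the keratinocyte list without keratins and the melanocyte list are higher in both anagen libraries than in both telogen libraries, and the adipocyte and skeletal muscle lists are lower.

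Of the keratins, those of the hair shaft differed most between aged and young dWAT in telogen, and all 15 were lower in OTD than in YTD. Over the family, 10 of 53 members differed by at least 1 on the log2 scale, 9 lower and 1 higher in OTD, where 1.93% of all genes were lower and 1.67% higher. Of the 9, 8 were hair shaft keratins (Krt31, Krt32, Krt33a, Krt33b, Krt35, Krt81, Krt83 and Krt87) and the other was Krt15. The median log2 difference was -1.06 for hair shaft, -0.54 for inner root sheath and -0.02 for epidermal or simple keratins, beside -0.03 for all genes. The epidermal or simple median was -0.31 with only members of at least 1 FPKM in OTD or YTD. Rescaling left all 15 hair shaft keratins lower in OTD, but with TPM Krt32 was under the threshold.

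Members of both the cortex and the cuticle were among those lower in OTD. Krt31 had 3.73 FPKM in OTD and 14.4 in YTD, a log2 difference of -1.70, from an estimated 95 and 345 fragments. The type I cortex keratin Krt33b had 3.05 and 13.3 FPKM (-1.82), its close copy Krt33a 5.47 and 16.7 (-1.45), and the type II keratin Krt83 3.09 and 13.5 (-1.83). Krt81 had 2.56 FPKM in OTD and 8.10 in YTD (-1.35) and Krt87 2.42 and 10.3 (-1.72), both type II hair keratins. The cuticle keratin Krt32 had 1.42 and 4.06 FPKM (-1.06) and the cuticle keratin Krt82 0.775 and 1.45 (-0.47), and Krt35, made from the matrix onwards, 6.64 and 15.7 (-1.13). Smaller differences were seen for Krt34, with 3.66 FPKM in OTD and 7.40 in YTD (-0.85), and for Krt86, with 3.63 and 5.88 (-0.57). Summed over the group, OTD had 3.03-fold less hair shaft keratin RNA than YTD. These are low levels, from 2 to 185 estimated fragments a gene in OTD and 5 to 410 in YTD, and Krt39 and Krt40 were under the floor in OTD.

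The 8 inner root sheath keratins were also lower in OTD in FPKM and TPM, and 7 of them by the median of ratios, where Krt72 was higher, but none differed by as much as 1 on the log2 scale. Their sum was 1.62-fold lower, and the log2 differences ran from -0.81 in Krt73 to -0.01 in Krt72. Krt27, a type I sheath keratin, had 45.5 FPKM in OTD and 74.6 in YTD (-0.70), and Krt73, a type II keratin of the sheath cuticle, 9.64 and 17.6. Krt28 had 10.5 and 13.8 FPKM (-0.37). Krt72, another type II keratin of the sheath cuticle, had 13.1 and 13.2.

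The epidermal or simple keratins were mixed, with 11 higher and 13 lower of the 24 with a value above 0. The basal and outer root sheath keratins were lower in OTD: Krt5 had 19.2 FPKM in OTD and 35.0 in YTD (-0.84), and Krt17 a log2 difference of -0.67. Krt14, the type I partner of Krt5, had 27.6 and 34.3 (-0.31). Krt15, which marks stem cells of the follicle bulge as well as basal cells, had 2.22 FPKM in OTD and 6.15 in YTD (-1.15). Krt79 was the exception past the threshold, a keratin of the upper follicle and sebaceous duct, with 6.47 FPKM in OTD and 2.22 in YTD (1.22). Krt16, a keratin of the companion layer and of stressed epidermis, had 2.50 and 1.46 (0.51), and Krt6a 13.0 and 11.5 (0.17). Krt42 had 0.518 FPKM in OTD and was listed at 0 in YTD, which makes it at least 4.49-fold higher. The summed group was 1.31-fold lower in OTD.

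No keratinocyte marker other than a keratin passed the threshold in telogen, where 1.93% of all genes were lower and 1.67% higher by as much. The nearest to it were Sfn (-0.97) and Dsp (-0.96). Of these 12 markers 9 were lower and 3 higher in OTD, with a median of -0.41 and a sum 1.41-fold lower. The 8 skeletal muscle markers were all lower, with a median of -0.67. The 8 melanocyte markers had a median of -0.22, with 5 lower. The part of differing cell content in the keratin values was not tested.

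In anagen the age difference was of the opposite sign for the inner root sheath, and small for the hair shaft. Over the family 6 of 53 members differed by at least 1 on the log2 scale, 5 higher and 1 lower in OAD, where 0.727% of all genes were higher and 0.454% lower. The higher members were Krt72, Krt14, Krt6a, Krt6b and Krt79, and the lower was Krt2, and with TPM Krt72 and Krt14 were under the threshold. The median log2 difference was -0.27 for hair shaft, 0.54 for inner root sheath and 0.16 for epidermal or simple keratins, beside 0 for all genes.

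All 8 inner root sheath keratins were higher in OAD than YAD in FPKM, by 0.15 to 1.06 on the log2 scale, and 7 of 8 with TPM, where Krt74 was lower. Krt72 had 1355 FPKM in OAD and 651 in YAD (1.06), the largest difference of the group. Krt27 had 3283 and 1773 (0.89), and Krt28 1264 and 771 (0.71). Krt26, a type I keratin of the sheath cuticle, had 404 and 223 (0.86). Krt71 and Krt25 differed less, by 0.36 and 0.33, as did Krt73, with 919 and 710 FPKM (0.37). The summed group was 1.48-fold higher in OAD. Trichohyalin (Tchh), the matrix protein in which sheath keratins are embedded, was higher in OAD in the same way, at 4477 FPKM against 2693 in YAD, after 32.2 in OTD and 51.8 in YTD.

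The hair shaft keratins had no member past the threshold in anagen, and 11 of 15 were lower in OAD in FPKM and TPM (10 of 15 by the median of ratios). Their sum was 0.931 of that in YAD. Krt31 had 1067 FPKM in OAD and 1378 in YAD (-0.37), Krt33b 1194 and 1438 (-0.27), Krt83 1724 and 2011 (-0.22) and Krt81 1227 and 1386 (-0.18). Krt87 was lower by more, with 862 and 1248 FPKM (-0.53), and Krt35 had 822 and 1081 (-0.39). Krt32 had 144 and 185 FPKM (-0.36), and Krt33a was level, at 1839 and 1844. Krt34 and Krt86 were on the other side, with 1662 FPKM in OAD and 1160 in YAD for Krt34 (0.52) and 1607 and 1260 for Krt86 (0.35). The low members Krt39 and Krt84 were also higher, by 0.58 and 0.25. Ratios of 2 members within a library need no scaling between libraries. The pairs that follow set a member seen to be higher in OAD over one seen to be lower, so their direction in anagen was fixed by that choice and they are a description only. Krt34 to Krt31 was 0.981 in OTD and 0.513 in YTD, and 1.56 in OAD and 0.842 in YAD. Krt86 to Krt81 was 1.42 and 0.726 in telogen and 1.31 and 0.909 in anagen. The 4 genes of these pairs share stretches of sequence with other keratins, as given above. Krt39 to Krt40, which share no 75-base window with another keratin compared here, was 1.07 in OAD and 0.452 in YAD.

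**Figure D3:**
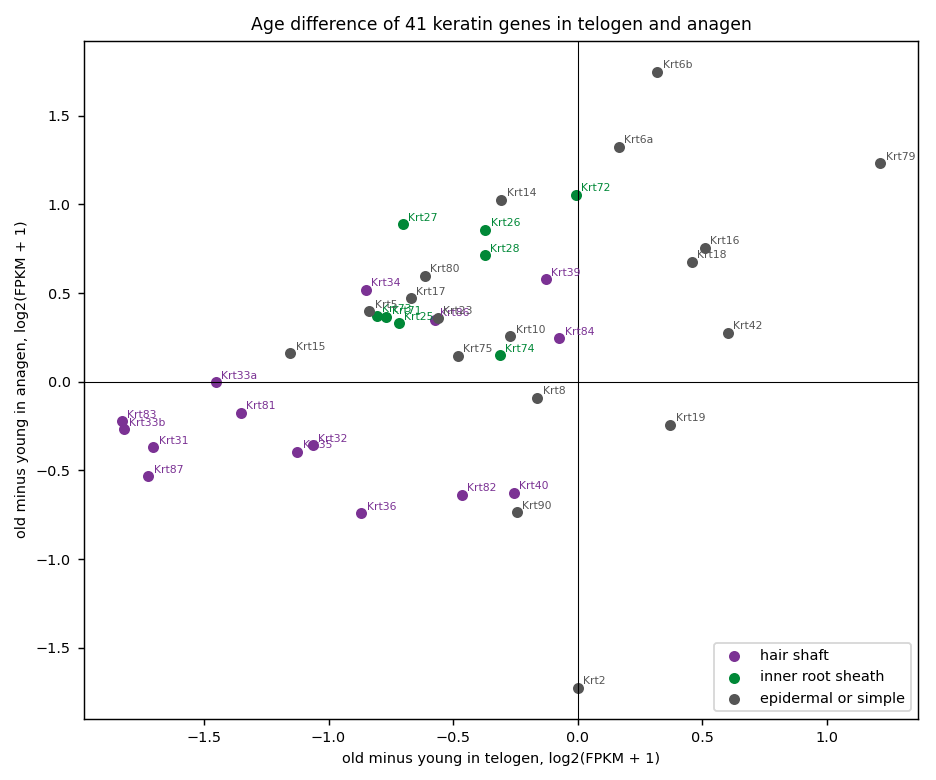
Old minus young difference of log2(FPKM + 1) in telogen (horizontal axis) and anagen (vertical axis) of the 41 keratin genes of 1 FPKM or more in some library, 1 point per gene, coloured by group. Hair shaft keratins lie left of 0, 11 of 15 in the lower left and 4 in the upper left, all 8 inner root sheath keratins lie in the upper left, and Krt79 lies farthest to the right.

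Among epidermal or simple keratins, 21 of 29 were higher in OAD, 14 of the 18 that reached 1 FPKM (12 with TPM), and those of the outer root sheath and companion layer stood out by level. Krt14 had 453 FPKM in OAD and 222 in YAD (1.02), and Krt5 618 and 469 (0.40). Krt17 differed by 0.47, and Krt6a, a companion-layer keratin also made in wounded skin, had 157 and 62.2 (1.32). Krt6b had 3.76 and 0.415 (1.75), after 0.432 in OTD and 0.147 in YTD, but it is nearly identical to Krt6a, which was far more abundant. Krt16, which pairs with Krt6a, had 66.5 and 38.9 (0.76). Krt15 had 156 and 140 (0.16) and Krt75 differed by 0.15, and both were lower in OAD with TPM. Krt79 had 32.3 FPKM in OAD and 13.2 in YAD (1.23), so it was the member that was higher in the old library by over 1 on the log2 scale in both phases. Krt2, a keratin of the upper living epidermis, was the one member past the threshold in the other direction, with 0.204 FPKM in OAD and 2.98 in YAD (-1.73), from an estimated 11 and 145 fragments, and it was listed at 0 in both telogen libraries. Krt18 had a log2 difference of 0.68 in anagen and 0.46 in telogen, and Krt8 of -0.09 and -0.16. Krt10 differed by 0.26 in anagen and -0.27 in telogen.

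Marker lists moved with the anagen comparison by different amounts. The 12 keratinocyte markers summed to 1.11-fold more in OAD in FPKM (9 higher, 3 lower, median 0.11) but to 1.06-fold less with TPM (3 higher, 9 lower, median -0.12). Set against these, the summed inner root sheath keratins were higher in OAD on either scale, by 0.56 and 0.33 on the log2 scale. The melanocyte sum was 1.64-fold lower in OAD, and 8 of 8 markers had lower values there (median -0.81). The skeletal muscle sum was 1.29-fold and the adipocyte sum 1.43-fold higher in OAD, and with TPM 1.10-fold and 1.22-fold. Of 9 suprabasal markers 7 were higher, with a median of 0.40 (0.17 with TPM), Lor (2.92 FPKM in OAD, 6.94 in YAD) and Calm5 being lower, and their sums were 52.5 FPKM in OTD and 49.96 in YTD, and 807 in OAD and 589 in YAD. The part of cell content in the keratin values was not tested, and the stage within anagen at which dWAT was collected is not given in the labels, so that stage and age cannot be told apart.

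The 8 sebaceous gland genes, of which 6 were higher in anagen at each age, summed to 255 FPKM in OTD and 167 in YTD, and 228 in OAD and 220 in YAD. Most of this was Mgst1, an enzyme of many cell types, with 243, 155, 163 and 135 FPKM, while Elovl3, a fatty acid elongase, had 0.685, 1.33, 39.3 and 62.2. The 4 Merkel cell genes, cells that make Krt8, Krt18 and Krt20, summed to 9.78, 10.2, 1.76 and 1.97. Most of this was Isl1, with 8.63, 9.47, 1.13 and 1.07 FPKM, the only 1 of the 4 to reach 1 FPKM in any library. Atoh1 had 0.0274, 0, 0 and 0. The 4 mesothelium genes summed to 1.14 and 1.36 in telogen, to 0 in OAD and to 0.0843 in YAD.

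**Figure D4:**
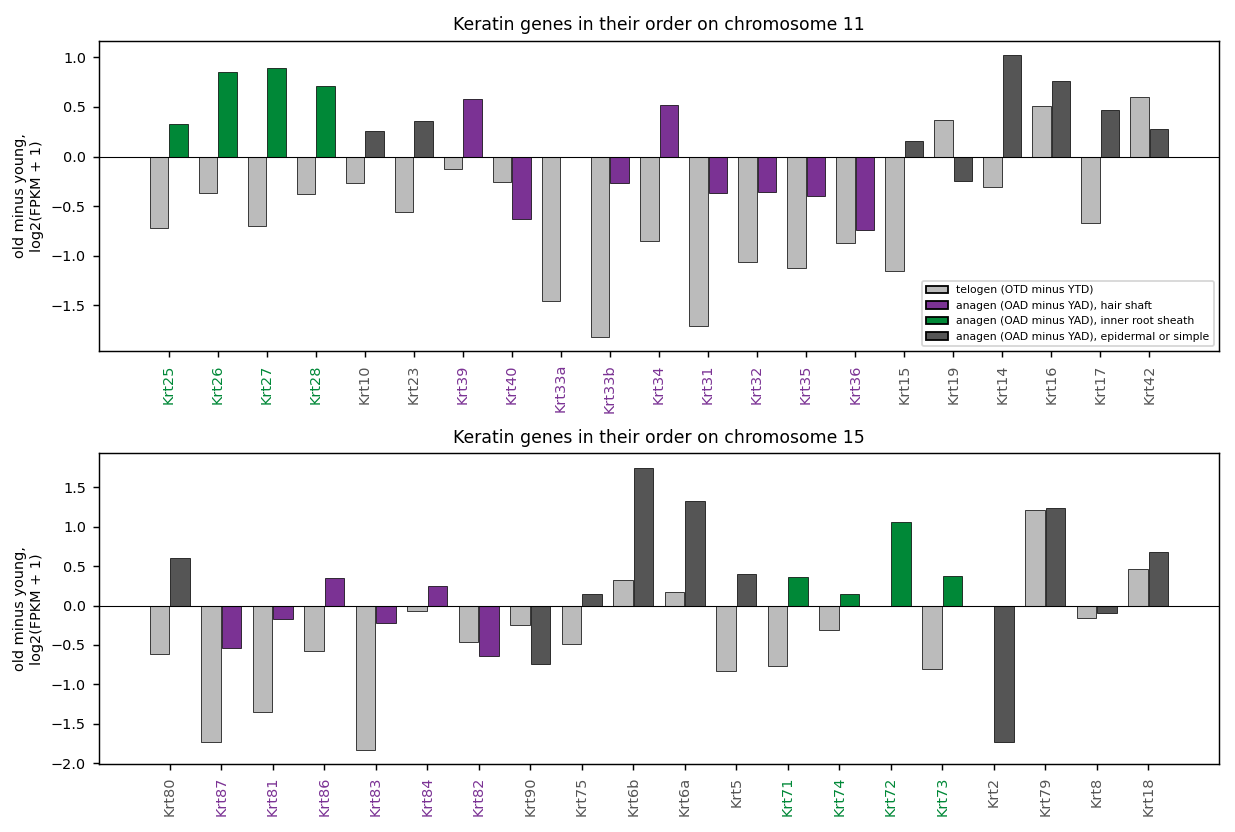
Old minus young difference of log2(FPKM + 1) in telogen (grey bars) and anagen (coloured by group) of the same 41 genes, set in their order on chromosome 11 (upper panel) and chromosome 15 (lower panel), with no distance to scale. Neighbouring genes of 1 group mostly point the same way, and Krt34, Krt39, Krt84 and Krt86 point upwards in anagen among hair shaft neighbours that point downwards or, for Krt33a, show no visible bar.

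The balance of the filament partners was measured as the ratio of summed type II to summed type I FPKM. For the hair shaft it was 0.510 in OTD and 0.533 in YTD, and 0.808 in OAD and 0.833 in YAD, a lower ratio in telogen at both ages, for sums that lack Krt85, a type II member not analysed here. For the inner root sheath it stayed near equality, at 0.898, 0.912, 0.890 and 0.996. For epidermal or simple keratins it was 0.650, 0.631, 0.622 and 0.670. These ratios depended on the most abundant pair, and without the highest member of each type the sheath ratios were 0.377 in OTD and 0.328 in YTD, and 0.526 in OAD and 0.496 in YAD. Single pairs varied more. Krt5 to Krt14 was 0.695 in OTD and 1.02 in YTD, and 1.36 in OAD and 2.11 in YAD, lower in the old library of each phase. Krt8 to Krt18 was 0.107, 0.192, 0.432 and 0.870, with the same order. Krt6a to Krt16 was 5.20, 7.89, 2.37 and 1.60, and Krt71 to Krt25 only moved between 1.48 and 1.68.

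Genes for the proteins that anchor keratin filaments were mostly lower in OTD, and their anagen sign depended on the scale. Of 14 genes for desmosomes and linkers, 13 were lower in OTD (median -0.63), where 9316 of 17230 genes above 0 were lower. In OAD 11 were higher in FPKM (median 0.19) but 6 with TPM (median -0.04), where 8800 of 17613 genes above 0 were higher in FPKM. The 14 genes summed to 102 FPKM in OTD and 204 in YTD, and 1583 in OAD and 1370 in YAD. Of the 14, 10 were at 1 FPKM or more in OTD and 11 in YTD. Desmoplakin (Dsp), which ties keratin to desmosomes, had 3.28, 7.33, 261 and 218 FPKM. Plectin (Plec), a linker made in many cell types including muscle, had the largest telogen difference, with 29.0 FPKM in OTD and 81.9 in YTD (-1.47). Dsc3 was also past the threshold (-1.01), where 1.93% of all genes were lower by as much. Plec and Dst, with 21.5 FPKM in OTD and 43.0 in YTD for Dst, made up much of the telogen sums. Desmoglein 4 (Dsg4), the desmosomal cadherin of the hair shaft, had 39.6 in OAD and 40.3 in YAD. Of 10 genes for the filament matrix and its hardening, 7 were lower in OTD and 8 higher in OAD (6 with TPM), and their sums were 38.0, 62.8, 5014 and 3078 FPKM. Only 2 of the 10 were at 1 FPKM or more in OTD and 4 in YTD, so several telogen directions rest on values near 0. Padi3, an enzyme that modifies trichohyalin, had 2.94, 6.89, 292 and 213 FPKM, and Padi1, of the same family, 57.6 in OAD and 28.1 in YAD (1.01).

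Most regulators of keratin genes were lower in OTD. Of 14 such genes 12 were lower in OTD, with a median of -0.68, where 9316 of 17230 genes above 0 were lower. Only 7 of the 14 were at 1 FPKM or more in OTD and 12 in YTD, so several telogen directions rest on low values. In OAD 10 had lower values (median -0.12, and with TPM 13 of 14 and -0.35), where 8795 of 17613 genes above 0 were lower in FPKM. Dlx3, a homeobox factor of the hair matrix, had 1.495 FPKM in OTD and 6.89 in YTD, and 207 in OAD and 231 in YAD. Msx2 had 0.830, 3.25, 109 and 120, and Lef1, the Wnt pathway factor, 0.333, 1.77, 49.1 and 54.4. These were the 3 regulators lower by at least 1 on the log2 scale in OTD, where 1.93% of all genes were lower and 1.67% higher by as much. Hoxc13, which drives hair keratin genes, had 2.00, 4.60, 122 and 144 FPKM, and Foxn1, the factor lacking in nude mice, 0.190, 1.30, 44.4 and 48.9. Gata3, a factor of the inner root sheath, had 0.935, 2.06, 53.5 and 57.9, and so did not share the higher OAD level of the sheath keratins. Klf4, made in many cell types, was the 1 regulator past the threshold in the other direction, with 60.8 FPKM in OTD and 21.4 in YTD (1.47), and with it the summed regulators were higher in OTD, at 81.2 against 62.4, although the median was lower.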

How the data were processed

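RNA of dWAT was measured in 4 libraries, grouped by the sample titles. The authors deposited FPKM per gene with its GRCm38 position and length, and 97.0% of lengths are multiples of 3, as of coding sequences. The submitters' processing notes name bcl2fastq, TopHat2 and GRCm38, and the counting tool is not given in the sources used here. FPKM were used as deposited, on the log2(FPKM + 1) scale, with no filter, for 22913 genes, 21750 of them with a symbol. Values are given in full for the 6 highest members of each keratin group, members differing by at least 1 on the log2 scale between ages, and 7 known pairs, of which Krt85 was not used, and other members were added as examples. Partner, regulator and marker lists are described by counts and medians (Eppk1 and Flg were not used). The members and lists were chosen with earlier results of these data known. The depth estimate used features between 2000 and 4000 bp long. Sequences came from RefSeq (GRCm38.p6) and GENCODE M21. Steps were tested on simulated data. Alternatives were pseudocounts of 0.1 and 0.01, a filter at 1 FPKM in either library compared, TPM, the median of ratios over 15507 genes and a threshold of 1.5. Python 3.11.15, numpy 2.4.6, pandas 2.3.3, biopython 1.88 and matplotlib 3.10.9 were used.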

Additional observations from a re-analysis of the deposited data

Results flagged for a closer look

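The age difference was of opposite sign in telogen and anagen for 2 summed groups and for 14 of the genes given in full. Each sign rests on 1 library per age and phase, and the difference between phases was not tested. The values that follow are the anagen minus the telogen log2 difference between old and young. For the sums, it was 1.26 for the inner root sheath keratins (-0.70 in telogen, 0.56 in anagen) and 0.906 for the epidermal or simple keratins (-0.39 and 0.51).

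In the inner root sheath it was 1.59 for Krt27, 1.18 for Krt73, 1.13 for Krt71, 1.09 for Krt28, 1.06 for Krt72 and 1.05 for Krt25. In the outer root sheath, companion layer and epidermis it was 1.33 for Krt14, 1.31 for Krt15, 1.23 for Krt5, 1.14 for Krt17, 0.629 for Krt75 and 0.526 for Krt10. Among hair shaft keratins Krt34 (1.37) and Krt86 (0.923) had opposite signs. The telogen sign of Krt72 depended on scaling, as did the anagen signs of Krt15 and Krt75.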

How the results depend on the processing

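Hair shaft keratins in telogen rest on few fragments, and with 1 library per group no spread between replicates is known, so a value on the log2 scale was taken as moved from 0.1 on. No paired analysis was possible because each group holds 1 library, and no library could be left out. No summed or median difference of the 3 keratin groups changed sign under an alternative, while those of some other lists did so with TPM. Between ages in anagen, both the sum and the median changed sign for the keratinocyte list and for the linker and desmosome list. The smooth muscle and Merkel cell medians and the sebaceous gland sum did so there too. Between phases, the smooth muscle and Merkel cell medians changed sign in young mice and the sebaceous gland sum in old mice. The number of keratins past the threshold was 10 between ages in telogen and became 17 and 24 with pseudocounts of 0.1 and 0.01 and 4 at a threshold of 1.5. In anagen it was 6 and became 11 with a pseudocount of 0.01 and 2 at a threshold of 1.5.

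Values below are for hair shaft, inner root sheath, and epidermal or simple keratins in this order. With TPM the log2 ratio of sums was -0.34, 0.33 and 0.28 between ages in anagen, 7.72, 5.64 and 4.73 between phases in young, and 8.99, 6.67 and 5.40 in old mice. TPM medians were -0.50 and 0.31 for the first 2 groups between ages in anagen, 7.30, 5.65 and 1.19 between phases in young, and 8.36, 6.76 and 0.91 in old mice. With a pseudocount of 0.1 the medians were -1.45, -0.72 and -0.16 between ages in telogen, 0.32 for the third group in anagen, 6.78, 5.13 and 2.20 between phases in young, and 8.12, 6.51 and 2.30 in old mice. With only members of at least 1 FPKM in either library compared, they were -1.24, -0.70 and -0.31 between ages in telogen. For the third group they were 0.38 between ages in anagen, 2.50 between phases in young and 3.50 in old mice. Without the highest member of each type, the type II to type I ratio was 0.453 (YTD) and 0.745 (YAD) in the hair shaft, 0.377 (OTD), 0.328 (YTD), 0.526 (OAD) and 0.496 (YAD) in the inner root sheath, and 0.443 (YTD), 0.738 (OAD) and 0.837 (YAD) in the third group. The cause of these moves was not tested.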
